A study of Mus musculus with 196 samples.

Results

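Small proline-rich proteins are encoded by the Sprr genes, and 7 of them, Sprr1a, Sprr1b, Sprr2b, Sprr2d, Sprr2f, Sprr2h and Sprr3, were followed across the skin of backcross mice. They were chosen by name, as listed Sprr genes whose array probe set names a single gene symbol, out of 18820 genes measured in that way. Each of the 7 had 1 probe set. The arrays held RNA from untreated mice aged 8 weeks, the offspring of F1 females (FVB/N females crossed to Mus spretus males) that were mated with FVB/N males, so that the mice differ from each other in genotype. The groups were tail skin (97 arrays, 48 females and 49 males), dorsal skin labelled anagen, when hair follicles grow (14 arrays, 8 females and 6 males), and dorsal skin not in anagen (85 arrays, 41 females and 44 males). Each array came from 1 mouse and 1 site, and 96 of the 100 mice had both sites measured. Dorsal skin was shaved before it was frozen.

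Small proline-rich proteins are precursors of the cornified envelope, the protein shell that replaces the cell membrane of keratinocytes as they die at the skin surface. Transglutaminases cross-link them to loricrin, involucrin and each other. The genes lie side by side in the epidermal differentiation complex, and several of them are known to be low in resting hairy epidermis and to be induced by wounding, ultraviolet light and other stress. Sprr3 is best known from the lining of the mouth and oesophagus.

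Values are array signals on the log2 scale, so a difference of 1 is a doubling of signal. Signals of different genes come from different probes and were not set against each other. A gene was called where the limma adjusted p (Benjamini-Hochberg over 18820 genes) was under 0.05 and, except between the sexes and between tails, the difference was at least 1. All tail arrays were in batches 3 and 4 and all dorsal arrays in batches 1 and 2, so tissue and batch cannot be told apart in any comparison of tail with dorsal skin. The anagen labels were checked on the inner root sheath, the sleeve around a growing hair. The mean of its 6 genes ran between 6.24 and 12.19 in anagen dorsal skin and between 4.74 and 6.22 in non-anagen dorsal skin. That of 6 hair shaft genes ran between 5.65 and 11.55 in anagen and between 5.09 and 6.32 in non-anagen dorsal skin, so some anagen arrays lay at non-anagen level. In bulk skin, a difference in the share of a cell type and one in RNA per cell cannot be told apart.

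Tail skin had far more signal than dorsal skin for Sprr2b, Sprr2d, Sprr1b and Sprr2h, while Sprr1a, Sprr2f and Sprr3 differed little. Of the 7 genes, 4 were called higher in tail than in non-anagen dorsal skin and 0 were called lower, where 3.94% of all genes were called higher and 2.02% lower. With no size limit, 6 were higher and 1 was lower (43.7% and 43.4% of all genes). The median difference was 2.17 over the 7 genes and 0.00 over all genes. Against anagen dorsal skin the same count, 4 higher and 0 lower, was found (3.33% and 1.69% of all genes). At any size these were 4 higher and 2 lower (38.8% and 34.9% of all genes). The 2 lower genes, Sprr1a (-0.29, limma adjusted p = 0.0291) and Sprr3 (-0.22, limma adjusted p = 0.00938), no longer passed when the difference was taken within each of the 14 mice (limma adjusted p = 0.192 and 0.154). The 4 higher genes still passed (limma adjusted p = 8.4e-07 for Sprr1b, 3.95e-15 for Sprr2b, 7.63e-12 for Sprr2d and 0.000281 for Sprr2h). The fit over all arrays assumes equal spread. Sprr1b and Sprr2h varied more between anagen arrays than between tails, so their p-values in that fit may be too small. Both comparisons share the 97 tail arrays.

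Sprr1a, a member of the subfamily induced early in keratinocyte differentiation, read above 10 on every array. Its signal ran between 10.81 and 12.35 in tail skin (median 11.72), between 10.36 and 12.98 in anagen dorsal skin (median 12.21) and between 10.07 and 12.29 in non-anagen dorsal skin (median 11.42). The ranges of all 3 skins overlapped, and the order of the medians was anagen dorsal, tail, then non-anagen dorsal skin. The difference between tail and non-anagen dorsal skin was 0.37 (SE 0.06, limma adjusted p = 4.88e-08), short of the size limit.

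Sprr1b, its closest relative in name, behaved differently. It averaged 11.05 ± 0.46 in tail skin (SD, n = 97), 7.64 ± 1.39 in anagen dorsal skin (SD, n = 14) and 6.57 ± 0.84 in non-anagen dorsal skin (SD, n = 85). All 97 tails, at 9.72 to 11.83, lay above all 85 non-anagen dorsal arrays, at 4.93 to 9.56. Of the 14 anagen arrays, 12 lay below every tail. The difference was 4.48 (SE 0.11, limma adjusted p = 5.36e-97), a signal 22.3-fold higher in tail skin. Against anagen dorsal skin it was 3.40 (SE 0.21, limma adjusted p = 1.4e-36).

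Sprr2b had the largest difference of the 7. It averaged 11.82 ± 0.22 in tail skin (SD, n = 97), 5.34 ± 0.49 in anagen dorsal skin (SD, n = 14) and 5.31 ± 0.51 in non-anagen dorsal skin (SD, n = 85). The lowest tail read 11.23 and the highest dorsal array 6.70, with no overlap and a wide gap. The tail signal exceeded non-anagen dorsal skin by 6.51 (SE 0.06, limma adjusted p = 5.29e-179) and anagen dorsal skin by 6.49 (SE 0.11, limma adjusted p = 3.85e-124).

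Sprr2d averaged 10.19 ± 0.68 in tail skin (SD, n = 97), 5.88 ± 0.44 in anagen dorsal skin (SD, n = 14) and 5.55 ± 0.57 in non-anagen dorsal skin (SD, n = 85). The tails ran between 8.74 and 11.57 and the non-anagen dorsal arrays between 4.64 and 7.96, again without overlap. The tail excess was 4.64 (SE 0.09, limma adjusted p = 1.03e-112). Among the 7 genes, Sprr2d also had the widest spread between tails.

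Sprr2h stood between these and the genes that barely differed. Its signal ran between 5.96 and 7.88 in tail skin (median 6.84), between 4.30 and 7.36 in anagen dorsal skin (median 5.12) and between 4.10 and 5.42 in non-anagen dorsal skin (median 4.63). Every tail was above every non-anagen dorsal array, while 9 of 14 anagen arrays were below every tail and the others lay among the tails. The tail excess was 2.17 over non-anagen (SE 0.07, limma adjusted p = 2.9e-79) and 1.23 over anagen dorsal skin (SE 0.13, limma adjusted p = 4.9e-17).

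Sprr2f and Sprr3 read low in every skin. Sprr2f averaged 5.05 ± 0.38 in tail skin (SD, n = 97), 5.12 ± 0.94 in anagen dorsal skin (SD, n = 14) and 4.56 ± 0.37 in non-anagen dorsal skin (SD, n = 85). Its ranges overlapped throughout, with a difference of 0.49 between tail and non-anagen dorsal skin (SE 0.06, limma adjusted p = 2.79e-12). Between tail and anagen dorsal skin it was -0.06, with a 95% interval of -0.30 to 0.19 (limma adjusted p = 0.685). Sprr3 averaged 4.00 ± 0.20 in tail skin (SD, n = 97), 4.22 ± 0.24 in anagen dorsal skin (SD, n = 14) and 4.28 ± 0.34 in non-anagen dorsal skin (SD, n = 85), a difference of -0.27 between tail and non-anagen dorsal skin (SE 0.04, limma adjusted p = 2.77e-10). Probe sets of the Y-linked genes Kdm5d, Uty and Eif2s3y, which females lack, had medians of 3.26 to 4.84 in the females of the 3 skins. How much of the low Sprr readings is background was not tested. These include Sprr2h in non-anagen dorsal skin, and Sprr2b and Sprr2d in dorsal skin.

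**Figure D1:**
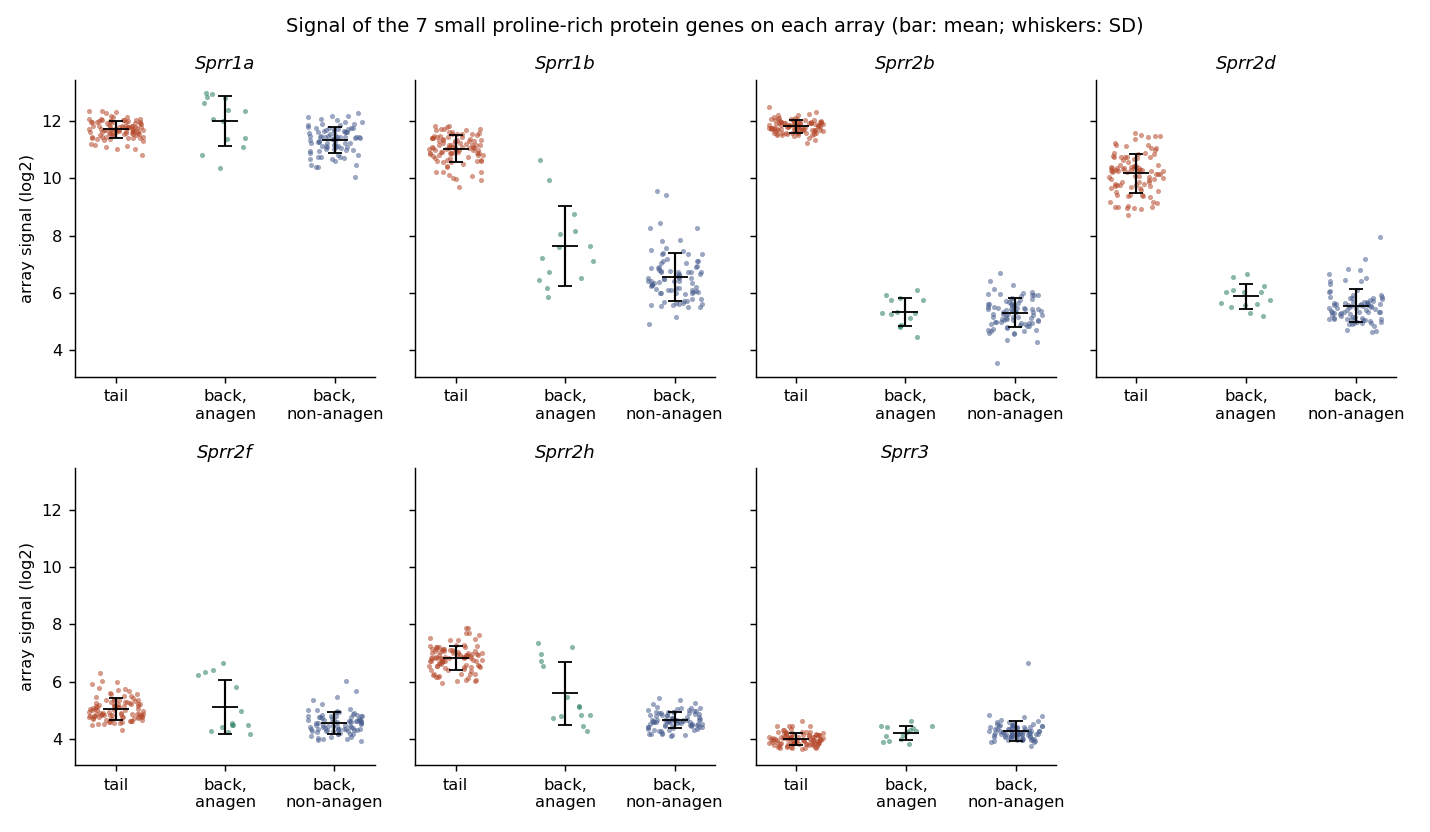
Array signal (log2, vertical axis) of the 7 genes, 1 panel per gene, in tail skin (97 arrays), anagen dorsal (back) skin (14) and non-anagen dorsal skin (85). Points are arrays, bars are means and whiskers are SDs, and for Sprr1b, Sprr2b, Sprr2d and Sprr2h no tail overlaps a non-anagen dorsal array.

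The sites were also compared within single mice. Among the 82 mice with tail and non-anagen dorsal arrays, the tail was the higher array in 82 for each of Sprr1b, Sprr2b, Sprr2d and Sprr2h. The difference within a mouse ran between 1.00 and 5.96 for Sprr1b, between 5.27 and 8.51 for Sprr2b, between 1.46 and 6.45 for Sprr2d, and between 1.23 and 3.27 for Sprr2h. Sprr1a was higher in the tail of 63 mice and lower in 19, Sprr2f higher in 68 and lower in 14, and Sprr3 higher in 14 and lower in 68. Among the 14 mice with tail and anagen dorsal arrays, the tail was the higher array in 14 for Sprr1b, Sprr2b and Sprr2d and in 12 for Sprr2h. In these mice Sprr2f was higher in the tail of 10 and lower in 4, with a mean difference of 0.20, against -0.06 between the groups. Sprr1a was higher in 6 and lower in 8, and Sprr3 higher in 5 and lower in 9.

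The Sprr2 genes are close copies of each other, yet Sprr2b and Sprr2d differed strongly between the sites and Sprr2f hardly did. Their promoters are shown to set these relatives side by side, with those of Sprr1a and Sprr1b, which also part ways. The windows are the 250 bases before each RefSeq gene start (GRCm38.p6), printed in the direction of the gene. For Sprr1b, the gene bounds listed with its probe set, 92436808 to 92438817, reach into the printed window, so they place its start differently. AP-1 motifs (TGANTCA), octamer motifs (ATTTGCAT) and TATA boxes (TATAAA) are in capitals, each searched on both strands.

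Sprr2b, chr3:92316455-92316704, plus strand: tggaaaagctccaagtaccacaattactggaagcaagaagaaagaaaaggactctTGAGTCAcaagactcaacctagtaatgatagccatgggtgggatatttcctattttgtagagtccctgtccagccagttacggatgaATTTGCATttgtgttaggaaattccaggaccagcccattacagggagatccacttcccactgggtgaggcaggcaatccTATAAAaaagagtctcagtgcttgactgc
Sprr2d, chr3:92338890-92339139, plus strand: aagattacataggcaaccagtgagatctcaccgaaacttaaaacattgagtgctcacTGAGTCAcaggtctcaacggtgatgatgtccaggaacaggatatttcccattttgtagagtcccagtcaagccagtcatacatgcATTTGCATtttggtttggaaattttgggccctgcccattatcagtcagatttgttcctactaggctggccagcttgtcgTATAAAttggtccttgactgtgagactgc
Sprr2f, chr3:92364937-92365186, plus strand: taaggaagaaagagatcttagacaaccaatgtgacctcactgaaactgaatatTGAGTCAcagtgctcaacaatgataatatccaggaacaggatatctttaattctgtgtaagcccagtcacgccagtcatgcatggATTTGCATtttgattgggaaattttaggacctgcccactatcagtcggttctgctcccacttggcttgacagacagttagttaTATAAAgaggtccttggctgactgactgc
Sprr2h, chr3:92385435-92385684, plus strand: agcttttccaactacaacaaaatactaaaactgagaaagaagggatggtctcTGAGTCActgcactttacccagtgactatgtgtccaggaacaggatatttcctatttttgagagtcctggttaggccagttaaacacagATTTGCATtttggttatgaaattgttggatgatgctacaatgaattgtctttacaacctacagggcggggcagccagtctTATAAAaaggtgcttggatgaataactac
Sprr1b, chr3:92438780-92439029, minus strand: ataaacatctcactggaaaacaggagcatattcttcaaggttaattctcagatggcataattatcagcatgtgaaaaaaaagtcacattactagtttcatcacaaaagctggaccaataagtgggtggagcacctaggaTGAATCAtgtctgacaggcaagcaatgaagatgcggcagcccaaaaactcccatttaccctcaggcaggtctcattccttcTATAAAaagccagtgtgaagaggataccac
Sprr1a, chr3:92485882-92486131, minus strand: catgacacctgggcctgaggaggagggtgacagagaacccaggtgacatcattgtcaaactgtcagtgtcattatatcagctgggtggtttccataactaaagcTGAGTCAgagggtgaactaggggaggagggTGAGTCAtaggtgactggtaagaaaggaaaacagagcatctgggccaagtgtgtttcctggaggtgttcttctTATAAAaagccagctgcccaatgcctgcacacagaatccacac

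All 4 Sprr2 windows carry the same 3 motifs in the same order. Counted back from -1 just before the start, the AP-1 motif, the site of Fos and Jun proteins, begins at -198 to -193, the octamer, the site of POU factors, at -112 to -108, and the TATA box at -29. Outside the 7 genes, the windows of Sprr2e, Sprr2i and Sprr2k hold all 3 motifs and that of Sprr2a1 holds none of them. The bounds listed for Sprr2a1, 92215835 to 92222491, are longer than those of the other Sprr2 genes, such as Sprr2b at 92316705 to 92318085. Its window may therefore not match theirs in position, and no sequence nearer its coding part was searched. The part of these motifs in the differences between the sites was not tested. Aligned over their whole length, Sprr2d and Sprr2f are 71.1% identical, Sprr2b and Sprr2d 65.4%, and Sprr2f and Sprr2h 60.1%. Sprr1a and Sprr1b are 55.9% identical. Sprr1a has 2 AP-1 motifs and Sprr1b 1, and neither holds the octamer. Over the 7 genes, 6 windows hold the AP-1 motif, 4 the octamer and 7 the TATA box. Of 32851 RefSeq promoter windows of this length, 6.7% hold the AP-1 motif, 1.6% the octamer and 12.4% the TATA box. The Ets core (GGAA), the site of factors such as Ehf and Elf5, is in all 7 windows and in 93.4% of all windows. The Klf-type CACCC box is in 4 of 7 and in 52.0% of all windows. The antioxidant response element (TGACNNNGC), the site of Nrf2, is in those of Sprr1a and Sprr2f and in 10.2% of all windows. In Sprr1a it overlaps an AP-1 motif. These are matches of letters in the reference sequence and not measured binding.

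Along chromosome 3 the differences did not follow the order of the genes in a simple way. Of the other 7 Sprr genes with a single-symbol probe set, Sprr2a1 and Sprr2e were called higher in tail than in non-anagen dorsal skin, by 3.28 (SE 0.09, limma adjusted p = 1.71e-86) and 1.32 (SE 0.08, limma adjusted p = 5.18e-39). The remaining 5, Sprr2g, Sprr2i, Sprr2j-ps, Sprr2k and Sprr4, differed by 0.08 to 0.87 and were not called. Sprr2f lies between Sprr2e and Sprr2h with a smaller difference than either, and Sprr3 (-0.27) lies between Sprr1b (4.48) and Sprr1a (0.37). The Sprr2 copies resemble each other in sequence, so transcripts of 1 gene may have reached the probes of another, which was not tested. The mice also differ in whether they carry a Mus spretus copy of these linked genes, and probes can bind the alleles of the parent species unequally. The part of this in the spread within a skin and in the correlations between these genes was not tested.

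**Figure D2:**
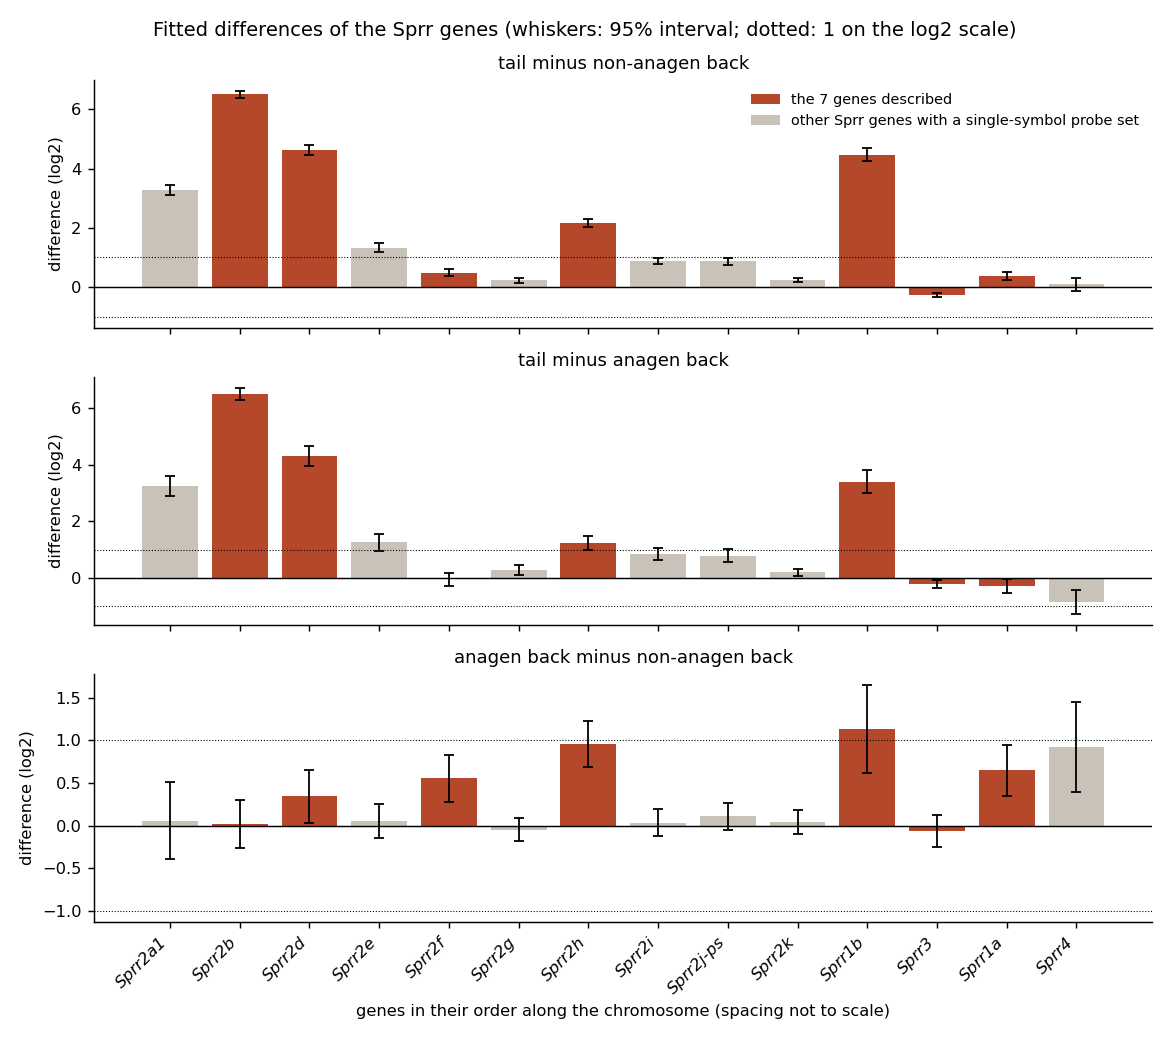
Fitted log2 differences (vertical axes) of 14 Sprr genes in their order on chromosome 3, for tail minus non-anagen back (top), tail minus anagen back (middle) and anagen minus non-anagen back (bottom), with 95% intervals, dotted lines at 1 and -1, and the 7 genes in dark bars. Sprr2b, Sprr2d and Sprr1b stand out in both tail panels, and Sprr1b alone of the 7 passes 1 in the bottom panel.

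Other cornified envelope genes differed between the sites as well. Of 42 measured genes of the epidermal differentiation complex outside the Sprr family, 13 were called higher in tail than in non-anagen dorsal skin and 1 lower, with a median difference of 0.49 against 0.00 over all genes. The largest were hair-associated: Prr9 (4.67), S100a3 (3.89), the inner root sheath protein gene Tchh (3.45) and Crnn (3.19). Of 14 genes of envelope cross-linking and scaffold, 3 were called higher and 1 lower (median 0.59). Among them, the cross-linking enzymes Tgm3 and Tgm1 were higher by 3.76 and 1.31, the lipoxygenase gene Alox12b by 1.13, and Alox12e fell by 1.42 on the log2 scale. Of 32 transcription factors known to act in keratinocytes or on Sprr promoters, 5 were called higher and 0 lower (median 0.41). These included the Ets factors Elf5 (2.35) and Ehf (2.25), Maf (1.53) and the AP-1 subunit Fosb (1.17). Of 11 target genes of Nrf2, a factor known in mouse skin to raise Sprr2d and other Sprr genes, 3 were called higher and 0 lower (median 0.57), namely the cystine transporter Slc7a11 (3.33), Srxn1 (1.55) and Gsta4 (1.04), while Nqo1 differed by 0.82. Of 17 keratinocyte stress genes, 13 were called higher and 0 lower (median 1.36), with Serpinb3a at 4.83, the cystatin gene Stfa3 at 3.96, the cytokine Il1f6 at 3.67 and Stfa1 at 3.30.

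Markers of other cells moved between the sites too. All 6 inner root sheath, all 6 hair shaft and all 5 melanocyte markers were called higher in tail than in non-anagen dorsal skin, as were 7 of 9 posterior position (Hox) genes and 2 of 3 neutrophil markers. Lower were 4 of 4 skeletal muscle and 2 of 3 T cell markers. Of the suprabasal keratins, Krt2 was higher by 7.59 and Krt77 lower by 6.01 on the log2 scale (-6.01). No basal keratinocyte marker of 4, macrophage marker of 3 or adipocyte marker of 2 was called at that size. The part of these in the Sprr differences was not tested.

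Anagen dorsal skin had more Sprr1b than non-anagen dorsal skin, and smaller excesses of Sprr2h, Sprr1a and Sprr2f. Of the 7 genes, 1 was called higher and 0 lower (0.68% and 0.00531% of all genes). At any size 4 were higher and 0 lower (4.11% and 3.59% of all genes). Sprr1b was higher by 1.13 (SE 0.26, limma adjusted p = 0.00159), Sprr2h by 0.96 (SE 0.14, limma adjusted p = 9.19e-08), Sprr1a by 0.65 (SE 0.15, limma adjusted p = 0.00199) and Sprr2f by 0.56 (SE 0.14, limma adjusted p = 0.00458). Sprr2b, at 0.02, had a 95% interval of -0.26 to 0.30, and Sprr2d differed by 0.34 (limma adjusted p = 0.208) and Sprr3 by -0.06 (limma adjusted p = 0.81). The Sprr1b call ended without the array of mouse 1083 (difference 0.90) or of mouse 1080 (0.96), and the difference ran between 0.90 and 1.28 over the 14 fits that each left out 1 anagen array. That of Sprr2f was 0.43 without mouse 1083 and no longer passed (limma adjusted p = 0.0567).

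The anagen arrays differed more among themselves than the non-anagen ones. The SD of Sprr2h was 3.89 times that of the non-anagen arrays of the same batch, that of Sprr2f 2.52 times, of Sprr1a 1.84 times and of Sprr1b 1.65 times. The fit assumes equal spread. The label was also permuted among the 89 dorsal arrays of batch 1 (two-sided permutation test of the mean difference, unadjusted), which unequal spread affects as well. The p was 1e-05 for Sprr2h, the smallest these permutations can give, 0.00012 for Sprr1a, 0.00031 for Sprr1b, 0.00076 for Sprr2f, 0.0416 for Sprr2d, 0.495 for Sprr3 and 0.86 for Sprr2b. The medians of Sprr2f differed by only -0.01, with 4 of 14 anagen arrays above every non-anagen array.

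High values came with much hair shaft and inner root sheath transcript. In the arrays of mice 1083, 1080, 1013, 1069 and 1056, the 5 with the highest hair shaft mean (9.07 to 11.55) and also the highest inner root sheath mean (11.2 to 12.19), Sprr1b read 10.65, 9.94, 8.06, 8.76 and 8.17. In the other 9 arrays Sprr1b lay between 5.87 and 7.66. Sprr2h read 7.20, 7.36, 6.53, 6.71 and 6.96 in those 5 arrays and between 4.30 and 5.46 in the others. Sprr1a read 12.63 to 12.98 in those 5 arrays and 10.36 to 12.39 in the others. The 5 highest arrays were thus the same for Sprr1a, Sprr1b, Sprr2h and the hair shaft mean. Sprr2f shared 4 of them: it read 6.22 to 6.65 in 4, but 4.56 in the array of mouse 1013 and 5.82 in that of mouse 1039, which had little hair shaft signal (6.84). Sprr2b shared none of the 5. Sprr4, outside the 7 genes, read 11.19 to 12.37 in those 5 arrays and 7.80 to 11.62 in the others. It was higher in anagen than in non-anagen dorsal skin by 0.92 (SE 0.27, limma adjusted p = 0.0181), short of the size limit.

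Across the 14 anagen arrays, adjusted for sex, the hair shaft mean correlated with Sprr2h (r = 0.89, rho = 0.87), Sprr1b (r = 0.85, rho = 0.79) and Sprr1a (r = 0.82, rho = 0.86), and negatively with Sprr2b (r = -0.70, rho = -0.77). The permutation p-values of r were 5e-05, 8e-05, 0.00056 and 0.00515, and those of rho 0.0002, 0.00115, 0.00023 and 0.00213, in the same order. Adjusted over 63 relations (7 genes, 3 lists, 3 skins) those of r were 0.00035, 0.000504, 0.00271 and 0.0162. Without the 2 arrays farthest from the median hair shaft level, r was 0.79, 0.73, 0.84 and -0.70. With the inner root sheath mean r was 0.83, 0.75, 0.89 and -0.74 for the same genes in the same order (rho 0.81, 0.75, 0.86 and -0.77). Their permutation p-values were 0.00037, 0.00157, 9e-05 and 0.00222 (adjusted p = 0.00194, 0.00659, 0.000515 and 0.00777), and r was 0.81, 0.72, 0.88 and -0.65 without the 2 farthest arrays. Splits into clusters were tried only with 6 or more arrays on each side. Among these, Sprr2f parted into 8 and 6 arrays, 4.13 pooled SDs apart, so no r is given for it. Its widest gap, between 4.97 and 5.82, parted 9 arrays from 5. Sprr2h reached 3.93 pooled SDs among these splits, just under the limit. Its 5 highest arrays (6.53 to 7.36) stood clear of the others (4.30 to 5.46), a split that was not tried. The part of that gap in the r of Sprr2h was not tested. Sprr2d (r = 0.29, p = 0.317) and Sprr3 (r = -0.13, p = 0.645) did not pass. Sprr2b read 4.46 to 6.12 in the anagen arrays. The Y-linked Kdm5d probe set read 4.18 to 5.17 in their 8 females. How much of this Sprr2b signal is background was not tested. In non-anagen dorsal skin, where the hair shaft mean had an SD of 0.24, r was 0.19 for Sprr1a (p = 0.0884), 0.02 for Sprr1b (p = 0.837) and 0.02 for Sprr2h (p = 0.883) by permutation. These relations were computed after the levels had been seen.

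**Figure D3:**
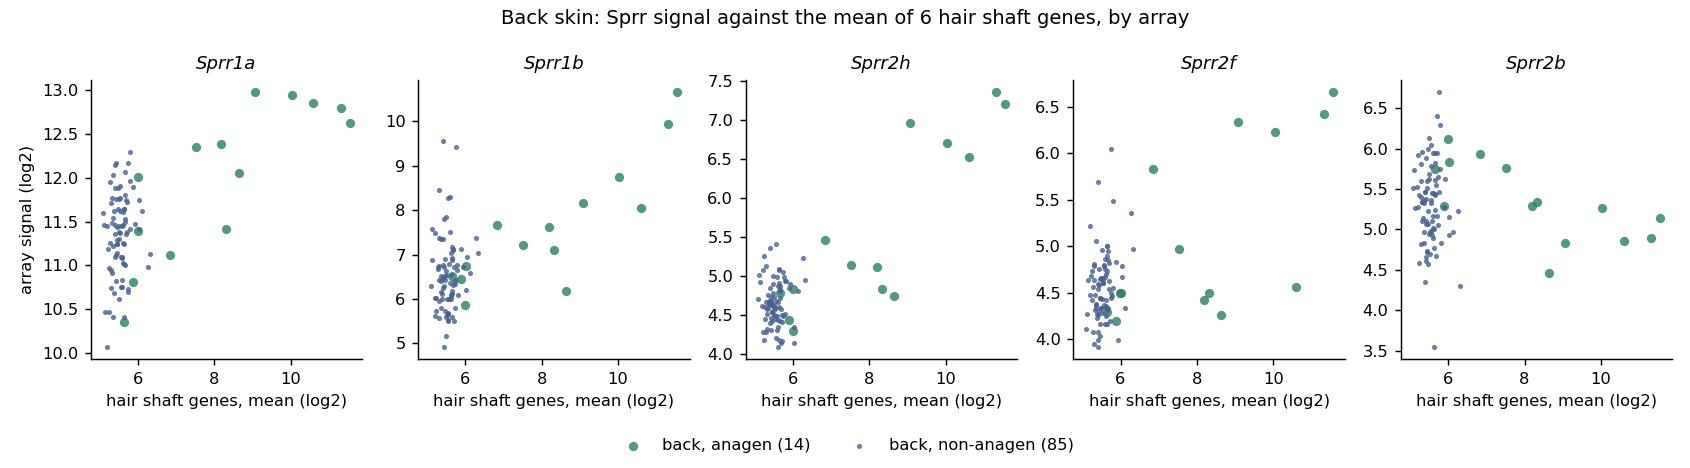
Array signal (log2, vertical axes, each with its own range) of 5 genes against the mean of 6 hair shaft genes (log2, horizontal axes) in anagen (large points, 14 arrays) and non-anagen (small points, 85 arrays) dorsal skin. The 5 anagen arrays with a hair shaft mean of 9.07 or more are the 5 highest for Sprr1a, Sprr1b and Sprr2h, while Sprr2b reads 4.83 to 5.26 in them.

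Outside the family, hair-associated genes led the same comparison. Of 42 genes of the epidermal differentiation complex, 6 were called higher and 0 lower in anagen dorsal skin, led by Tchh (3.95), Crnn (3.54), Prr9 (3.41) and S100a3 (2.38). Of 32 transcription factors 1 was called higher, Elf5 (1.05), and 0 lower. None of 14 cross-linking genes, 11 Nrf2 targets or 17 stress genes was called in either direction. All 6 inner root sheath and all 6 hair shaft genes were called higher, with medians of 4.27 and 2.59, and the part of those cells in the Sprr differences was not tested.

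Tails were also grouped by the hair cycle label of the same mouse's dorsal skin. Of the 7 genes 0 were called in tails of mice with anagen dorsal skin against tails of mice with non-anagen dorsal skin, and 0 (0% higher and 0% lower) of all genes were, by limma. At an unadjusted p under 0.05, 2 of the 7 and 372 of all genes passed. Those 2 were Sprr2d, which averaged 10.58 ± 0.66 in 14 tails of the first kind and 10.12 ± 0.67 in 82 of the second, and Sprr2f, at 5.32 ± 0.45 and 5.01 ± 0.35 (SD). The anagen effect in dorsal skin exceeded that in tails by 0.69 for Sprr1a (SE 0.18, limma adjusted p = 0.00767), by 1.00 for Sprr1b (SE 0.30, limma adjusted p = 0.0319) and by 0.76 for Sprr2h (SE 0.19, limma adjusted p = 0.00374). That is 3 of 7 at any size, against 2.56% of all genes. With the size limit 0 of 7 were called higher, by limma, against 0.765% of all genes, since Sprr1b reached 0.998. This fit assumes equal spread as well. The anagen dorsal arrays spread more than the non-anagen ones for Sprr1a, Sprr1b and Sprr2h, so these SEs and p-values may be too small.

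Within one skin the genes varied together in part. Over the 97 tails, adjusted for sex and batch, 13 of the 21 pairs of genes correlated positively and 0 negatively at an adjusted permutation p under 0.05, with a median r of 0.29. The strongest pairs were Sprr1b with Sprr2d (r = 0.69, rho = 0.62), Sprr1b with Sprr2h (r = 0.56, rho = 0.57) and Sprr2d with Sprr2h (r = 0.51, rho = 0.43). Each had a p of 1e-05, the smallest 100000 permutations can give, for r and rho (adjusted over 21 pairs, 3.5e-05 for r and 5.25e-05 for rho). Without the 2 tails farthest from the median of the first gene, r was 0.68, 0.61 and 0.53. Over the 94 tails of batch 4 it was 0.69, 0.56 and 0.51. Sprr1a gave an r of 0.07 with Sprr2d (p = 0.498) and of -0.11 with Sprr2f (p = 0.291). Sprr3 passed with 1 of the other 6, Sprr2f (r = 0.29, p = 0.00408, adjusted p = 0.00779, rho = 0.24, 0.28 without the 2 tails). The r of Sprr3 depended on array scaling. With all arrays shifted to the same median it was 0.53 with Sprr2f, 0.42 with Sprr2b, and 0.21 with both Sprr1a and Sprr2h. With Sprr1b and Sprr2d it was then -0.02.

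Over the 85 non-anagen dorsal arrays, 8 of 21 pairs passed, all positive, with a median r of 0.21. Sprr1b with Sprr2d again came first (r = 0.64, rho = 0.51, p = 1e-05 for both, adjusted p = 0.000105 for r), followed by Sprr2d with Sprr2f (r = 0.57, rho = 0.35, p = 1e-05 and 0.00125, adjusted p = 0.000105 for r). Without the 2 farthest arrays these were 0.47 and 0.38, and over the 75 arrays of batch 1 they were 0.64 and 0.67. Sprr1b with Sprr2f passed (r = 0.43, rho = 0.22, p = 0.00011, adjusted p = 0.00077), but r was 0.17 without the 2 arrays farthest from the median, so that this relation rests on them. Sprr2b with Sprr2f, Sprr2d with Sprr2h and Sprr2f with Sprr2h passed by r (0.29, 0.29 and 0.31). Without the 2 farthest arrays their r was 0.18, 0.17 and 0.18. By rho they did not pass (adjusted permutation p = 0.173, 0.105 and 0.11), nor did Sprr1b with Sprr2f (0.11). Sprr3 correlated with none of the other 6 at an adjusted permutation p under 0.05.

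**Figure D4:**
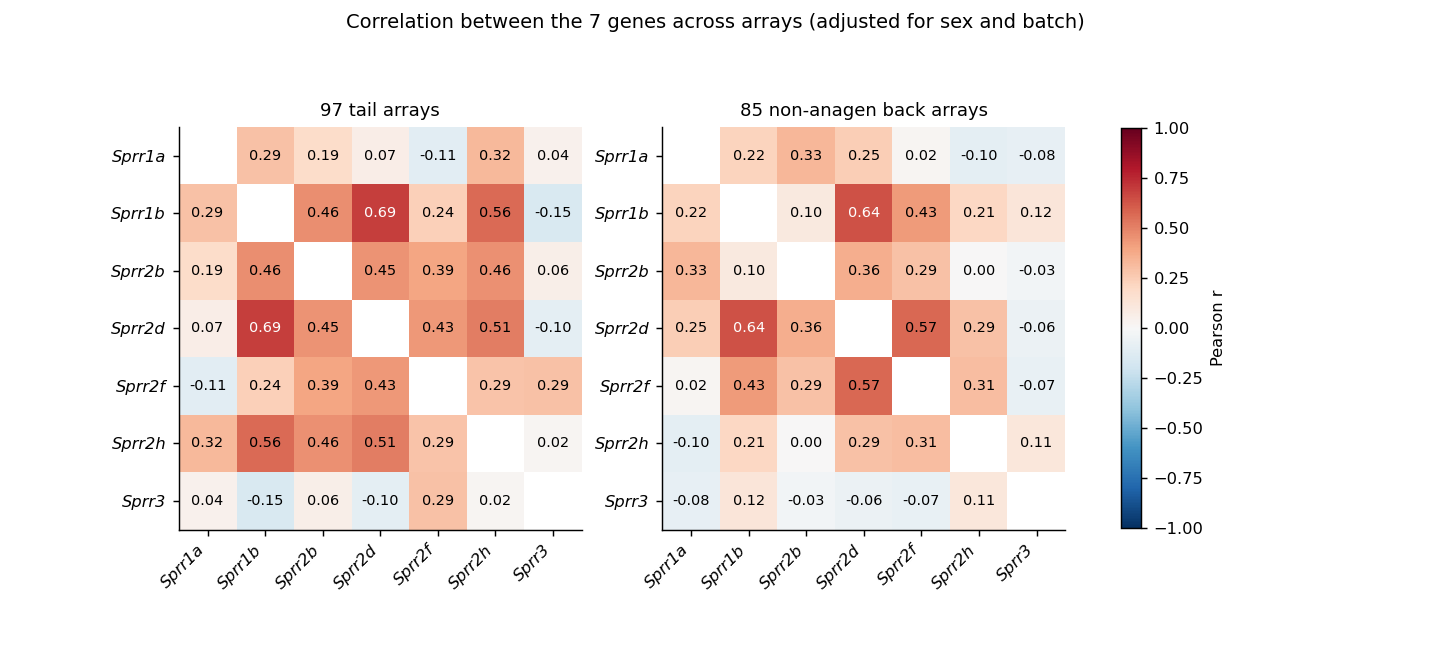
Pearson r between each pair of the 7 genes over 97 tail arrays (left) and 85 non-anagen back (dorsal) arrays (right), adjusted for sex and batch, with red for positive and blue for negative r. Sprr1b with Sprr2d is the strongest pair in both, at 0.69 in tails and 0.64 in non-anagen dorsal skin. Sprr3 stands apart from most at the scaling shown, which in tails depended on that scaling.

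The shared variation ran along the keratinocyte stress genes for some members and, in tails, along hair genes for Sprr1a. Of the relations with hair genes in tails, only those of Sprr1a and Sprr2d are given. Over tails, the mean of 17 stress genes (7.80 to 10.18) correlated with Sprr2d (r = 0.83, rho = 0.83), Sprr1b (r = 0.66, rho = 0.61), Sprr2h (r = 0.53, rho = 0.43) and Sprr2f (r = 0.46, rho = 0.41). For these 4, p was 1e-05 for r (adjusted p = 7.88e-05 over the 63 relations), and between 1e-05 and 8e-05 for rho. Sprr2b followed more weakly (r = 0.32, rho = 0.31, p = 0.00174 and 0.00195, adjusted p = 0.00685 for r), and Sprr1a (r = 0.20, p = 0.0533) and Sprr3 (r = -0.12, p = 0.224) did not pass. Leaving out the 2 tails farthest from the median stress level gave 0.82, 0.64, 0.47, 0.42 and 0.29 for the 5 that passed, in that order, and the tails of batch 4 alone gave 0.83, 0.66, 0.53, 0.46 and 0.32. Sprr1a instead correlated with the inner root sheath mean (r = 0.57, rho = 0.57) and the hair shaft mean (r = 0.55, rho = 0.53), each with a p of 1e-05 (adjusted p = 7.88e-05), and with r at 0.55 and 0.52 without the 2 farthest tails. For Sprr2d the corresponding r were 0.10 (p = 0.325) and 0.10 (p = 0.321).

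In non-anagen dorsal skin the stress mean (6.23 to 7.79) correlated with Sprr1b (r = 0.68, rho = 0.49) and Sprr2d (r = 0.65, rho = 0.40), each with a p of 1e-05 (adjusted p = 7.88e-05), and with rho p-values of 2e-05 and 0.00021. Without the 2 farthest arrays r was 0.51 and 0.46, and in batch 1 it was 0.67 and 0.63. For Sprr2f (r = 0.38, rho = 0.04, p = 0.00076, adjusted p = 0.00342) r was 0.05 without them, so that this relation rests on those arrays. In anagen dorsal skin none of the 7 correlated with the stress mean (r between -0.27 and 0.33).

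**Figure D5:**
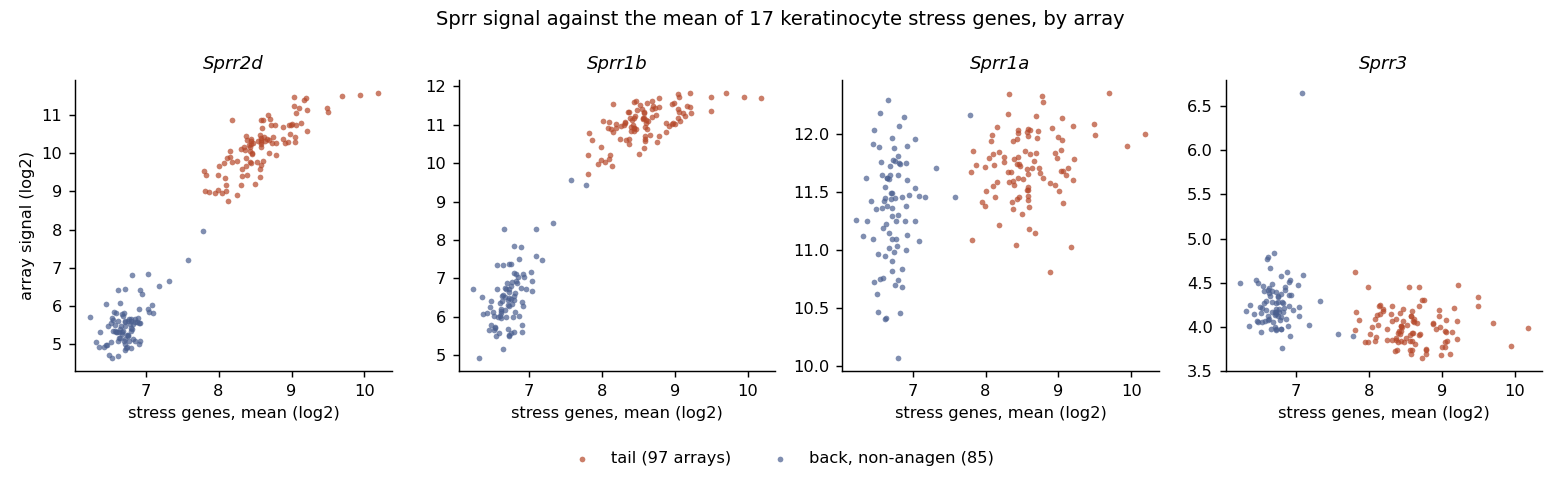
Array signal (log2, vertical axes, each with its own range) of Sprr2d, Sprr1b, Sprr1a and Sprr3 against the mean of 17 keratinocyte stress genes (log2, horizontal axes) in 97 tail and 85 non-anagen back (dorsal) arrays. Sprr2d and Sprr1b rise along the stress mean within each site. The relations of Sprr1a and Sprr3 in tails did not pass the permutation test, and 1 non-anagen array stands at 6.65 for Sprr3.

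Each gene's closest partners by Pearson r, taken over all genes outside the Sprr family, are given as a description. For Sprr1a the first was Klk10, a kallikrein-related peptidase, in tail (r = 0.81, n = 97) and in non-anagen dorsal skin (r = 0.83, n = 85). In tails it was followed by the keratin-associated protein genes Krtap4-16 (0.75) and Krtap4-6 (0.74), and in non-anagen dorsal skin by Rhog (0.75) and Serinc2 (0.73). For Sprr1b the first in tails were Rptn, an envelope protein gene of the same complex (0.73), Teddm3 (0.72) and the connexin gene Gjb2 (0.70), and in non-anagen dorsal skin Stfa1 (0.61), the keratin gene Krt6b (0.60) and Il1f6 (0.55). For Sprr2d the beta-defensin gene Defb3 came first in tail (0.81) and in non-anagen dorsal skin (0.59), followed in tails by S100a8 (0.80) and Il1f6 (0.77) and in non-anagen dorsal skin by Krt6b (0.58) and Ubd (0.58).

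Sprr2b was closest in tails to Lce1f (0.61) and Lce1g (0.55), genes of late cornified envelope proteins, and to Rps6kb2 (0.52), and in non-anagen dorsal skin to Trpv2 (0.42), the Y-linked Kdm5d (0.41) and Tmem243 (0.40). Sprr2h was closest in tails to Alox12b (0.70), Klk9 (0.70) and Lce3c (0.67), and in non-anagen dorsal skin to Ccdc73 (0.54), Abca17 (0.53) and Syce1 (0.52). Sprr2f was closest in tails to Lce3a (0.63), Vmn2r113 (0.58) and Cntn3 (0.58), and in non-anagen dorsal skin to Defb3 (0.55), Cldn13 (0.52) and Olfr1484 (0.52). For Sprr3 in tails the first were Olfr1402, an odorant receptor gene (0.68), Ppp1r2-ps9 (0.66) and 4930451I11Rik (0.64). In non-anagen dorsal skin they were Krt13, a keratin of the internal squamous lining (0.60), Klk14 (0.43) and Tpte (0.37). The array of mouse 1065 was the highest of 85 for both Sprr3 (6.65, median 4.22) and Krt13 (7.0, median 4.72). The r of this pair without that array was not computed. Several partners of Sprr2f, Sprr2h and Sprr3 read at or below the highest female median of the Y-linked probe sets (4.84). In tails these were Olfr1402 (mean 4.49), Ppp1r2-ps9 (4.57), Vmn2r113 (4.84) and Cntn3 (3.46). In non-anagen dorsal skin they were Ccdc73, Abca17, Syce1, Olfr1484, Cldn13, Tpte and Krt13, at means of 3.53 to 4.84. The other partners of these genes read higher. Stfa1 (mean 4.575), a partner of Sprr1b, and Ubd (3.643), a partner of Sprr2d, also read below 4.84 in non-anagen dorsal skin. The part of array background in these r was not tested. By the mean r over all 7 genes, Lce3c (0.43), Klk8 (0.43), Klk9 (0.43), Cnfn (0.39) and Il1f6 (0.39) led in tails, and Defb3 (0.37), Krt6b (0.34), Stfa1 (0.32), Lce1g (0.31) and Zbp1 (0.30) in non-anagen dorsal skin.

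A few non-anagen dorsal arrays carried high Sprr values. In the array of mouse 1065, Sprr3 read 6.65 against a group median of 4.22, and the Krt13 signal was also the highest of 85, while Sprr1b read 8.29 and Krt6b 8.68. Krt4, the partner of Krt13 in internal squamous linings, read 4.95 against 4.71. In the array of mouse 1075, Sprr2b (6.70), Sprr2d (7.96) and Sprr2f (6.04) were each the highest of 85, and so were Il1f6 (9.90) and Krt16 (7.72). Its Sprr2a1 signal was 10.73 against a median of 7.32. In the array of mouse 1037, Sprr1b (9.56), Stfa1 (7.64) and Krt6b (9.65) were the highest of 85. Krt6a, of the same stress list, read 7.80 and 7.74 in the arrays of mice 1075 and 1037, below the group median of 7.95. The arrays highest for Sprr1a (mouse 1110, 12.29) and for Sprr2h (mouse 1033, 5.42) had Il1f6 at 6.25 and 6.44, near its median of 6.25. Krt2 read 5.28, 5.41 and 5.62 and Krt77 read 12.47, 12.48 and 12.40 in the arrays of mice 1065, 1075 and 1037, against dorsal medians of 5.10 and 12.66. The tail arrays of mice 1075 and 1037 ranked 82 and 24 of 97 for Sprr2d, 87 and 48 for Sprr1b, 13 and 58 for Sprr2b, and 11 and 5 for Sprr2f. No tail of mouse 1065 was among the arrays used here. Without these 3 dorsal arrays, 4 of the 7 genes were again called higher in tail skin and 1 in anagen dorsal skin.

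Whether a mouse high for a gene in the tail was also high in its non-anagen dorsal skin was asked next. Over 82 mice, adjusted for sex and batch, r lay between -0.10 (Sprr3) and 0.17 (Sprr1b), and rho between -0.16 and 0.15. No permutation p was under 0.05 (the lowest was 0.118, for Sprr1b; adjusted over 7 genes, 0.827). Without the 2 mice farthest from the median dorsal level, r was 0.28 for Sprr1b (p = 0.0121) and -0.28 for Sprr2f (p = 0.0105). In the 72 mice of batches 1 and 4, Sprr1b had an r of 0.20 (p = 0.0928).

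No difference between females and males passed the limma test for any of the 7 genes. In non-anagen dorsal skin 0 of 7 were called higher and 0 lower in females, against 9.84% and 8.89% of all genes, and the differences ran between -0.12 (Sprr1b, 95% interval -0.43 to 0.19) and 0.14 (Sprr2b, 95% interval -0.03 to 0.30). In tails 0 of 7 were called, against 0.696% higher and 0.361% lower of all genes, with differences between -0.05 (Sprr1b) and 0.12 (Sprr2f). The difference between the sex effects of tail and dorsal skin gave 0 of 7 again, against 3.97% higher and 3.76% lower. At an unadjusted p under 0.05 the count of the 7 was 0 in each of these, against 5799, 2013 and 4171 of all genes. Some genes of the lists differed by sex in non-anagen dorsal skin. Of the 42 genes of the complex, 11 were called higher in females and 4 lower, with S100a8, also a neutrophil marker, at 0.79, and the peptidoglycan recognition genes Pglyrp4 at 0.39 and Pglyrp3 at 0.34. Of 14 cross-linking genes 6 were called higher, among them Casp14 (0.38), a protease of cornifying keratinocytes, and 1 lower, Tgm2 (-0.48). Of 11 Nrf2 targets, 1 was called higher and 3 lower, Gsta3 (-0.50) and Gsta4 (-0.46) among them.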

How the data were processed

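Total RNA (1 ug per array) from snap-frozen skin was labelled with biotin, per the labels' protocols. The deposited values are log2 signals that the authors made with RMA, per the submitters' processing notes. No version is given in the sources used here. Of 35556 probe sets, 21218 named 1 gene, and the one with the highest mean was kept for each of 18820 genes. All arrays and genes entered, however low the signal.

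Linear models came from limma 3.58.1 (R 4.3.3), with sex as a covariate and batch within tissue where a comparison lay inside one tissue. Permutations (100000, two-sided) were run in Python 3.11.15. Promoters were matched by symbol (7 of 7). The fits and permutations were tested on simulated data. The members and the gene lists were chosen with earlier results of these data known. By rule, the text names all 7 genes, up to 4 of the largest differences of a list, and for likeness the 3 genes with the highest r per gene and the 5 with the highest mean r. Arrays singled out, and correlations with list means, were chosen after values were seen. Mouse numbers pair tail and dorsal arrays of the same animal. Over all genes, the deviations of a mouse's 2 arrays correlated with a median r of 0.143, against 0.00 for arrays of other mice. The number of arrays limits the precision.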

Additional observations from a re-analysis of the deposited data

Results flagged for a closer look

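The hair cycle effect on 3 genes differed between the sites by an interaction test. The anagen effect in dorsal skin minus that in tail skin was 0.69 for Sprr1a, 1.00 for Sprr1b and 0.76 for Sprr2h (limma adjusted p = 0.00767, 0.0319 and 0.00374). The fit assumes equal spread, which the anagen dorsal arrays did not have for these genes, so these p-values may be too small. Tails take the label from the mouse's dorsal skin, and their own hair cycle state is not labelled. All 3 genes were higher in the 5 anagen arrays with the most hair shaft signal, whose part in this was not tested.

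A probe set that names Sprr2a1, Sprr2a2 and Sprr2a3 together was outside the comparisons and also read higher in tail skin, at 12.25 ± 0.26 (SD, n = 97), against 8.42 ± 1.01 in non-anagen dorsal skin (SD, n = 85), a difference of 3.82. Anagen dorsal skin averaged 8.43 ± 0.80 (SD, n = 14). The tails ran between 11.58 and 12.72 and the non-anagen dorsal arrays between 6.84 and 12.24, so that the highest non-anagen value lay among the tails.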

How the results depend on the processing

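Of 971 recomputed values over 81 results and 31 settings, none that passed its test in either fit changed sign. Among values that did not pass, 25 changed sign, with Sprr2f between tail and anagen dorsal skin at -0.06 in the reported fit and up to 0.19 (within each mouse). With no size limit, 1 gene was lower in tail than in non-anagen dorsal skin, 2 were lower in tail than in anagen dorsal skin, and 4 were higher in anagen than in non-anagen dorsal skin. Quantile normalization over all arrays raised Sprr2h to 1.04, so that 2 genes were called higher in anagen dorsal skin, and raised the difference of the anagen effects of Sprr1b to 1.02, so that 1 gene was called; the cause was not tested. Leaving out 1 anagen array at a time gave 0 to 2 genes called higher, 0 without mouse 1080 or mouse 1083, where Sprr1b was under the size limit (limma adjusted p = 0.017 and 0.0248), and 2 without 6 others, where Sprr2h passed it. With mouse as a replicate block, or the difference within each mouse, 4 genes were called higher in tail than in non-anagen and in anagen dorsal skin, and no call with the size limit changed. At any size, the difference within each mouse ended the adjusted p under 0.05 of Sprr1a and Sprr3 between tail and anagen dorsal skin, that of Sprr1a also ended without any of 7 anagen arrays (adjusted p 0.0598 to 0.115), and that of Sprr2f in anagen dorsal skin without mouse 1083 (adjusted p 0.0567). Shifting all arrays to the same median moved the median of all genes between tail and non-anagen dorsal skin by -0.21, with Sprr1a at 0.16, Sprr2f at 0.28 and Sprr3 at -0.48, and the calls over all genes were then 489 higher and 620 lower, against 741 and 381. Under quantile normalization Sprr3 differed by -0.07 (limma adjusted p = 0.1) from non-anagen and by -0.01 (limma adjusted p = 0.93) from anagen dorsal skin, with 537 higher and 524 lower over all genes. Signals near the background of the arrays, as those of Sprr2f, Sprr3 and dorsal Sprr2b, Sprr2d and Sprr2h may be, limit what differences can be seen.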
